A study of Arabidopsis thaliana with 9 samples.

Results

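Roots of the Arabidopsis thaliana mutant line myb36-2 were compared with roots of Col-0, the wild-type accession, on Affymetrix expression arrays. The comparison took the 3 arrays labelled myb36-2 and the 3 labelled Col-0, which are 6 of the 9 arrays of the series. The other 3 arrays are of a further mutant line, myb36-1, and entered the fit to estimate the spread between arrays. All plants were 2 weeks old and were raised on plates of MGRL medium, a defined mineral nutrient medium, and whole roots were taken, so fewer cells of a type and less RNA per cell cannot be told apart in any value below. The titles of the myb36-2 arrays carry the name GK543B11, and those of the myb36-1 arrays carry another name. Beyond these names the labels do not describe the mutations. They also do not say whether the arrays of a line came from separately grown plants. Each p-value therefore reflects array-to-array spread only, and that spread may be technical.

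MYB36 is a transcription factor of the root endodermis, the cell layer that encloses the vascular tissue. It directs the genes that build the Casparian strip, a ring of lignin in the endodermal cell wall that blocks passage between cells. Scaffold proteins of the CASP family mark the membrane domain, peroxidases polymerise lignin there, dirigent proteins organise the deposit, and a receptor kinase pathway checks that the ring is closed. No probe set was paired with MYB36 alone, so the line labels were not checked against its transcript. CASP1 to CASP5, ESB1 and PER64 likewise had no probe set of their own and are not analysed here. A probe set is a group of probes on the array that reads 1 transcript. Most genes are known in the reference table by locus only, and the family names given below for such loci are background knowledge.

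Of 16542 genes with a probe set of their own, 796 were higher in myb36-2 than in Col-0 (4.81%) and 914 were lower (5.53%), at a Benjamini-Hochberg adjusted p under 0.05 in limma. Together 10.3% of genes were called. Over all 31325 tested probe sets, named or not, 10.1% were called, 4.66% higher and 5.39% lower. The 3 arrays of each line did not overlap in 32.5% of all genes, 15.2% higher and 17.3% lower in myb36-2. Most of these changes were small. The median size was 0.58 log2 units among genes that rose and 0.52 among genes that fell, and 300 and 426 of them moved by less than 0.5 log2 units. Changes of at least 2 log2 units numbered 5 among the rises and 7 among the falls. The largest fall was 5.48 log2 units and the largest rise 2.83. The falls therefore held the most extreme genes, while rises of 1 log2 unit or more whose arrays did not overlap between the lines were more numerous, at 90 genes (0.544%) against 50 falls (0.302%), or 0.846% in all.

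**Figure D1:**
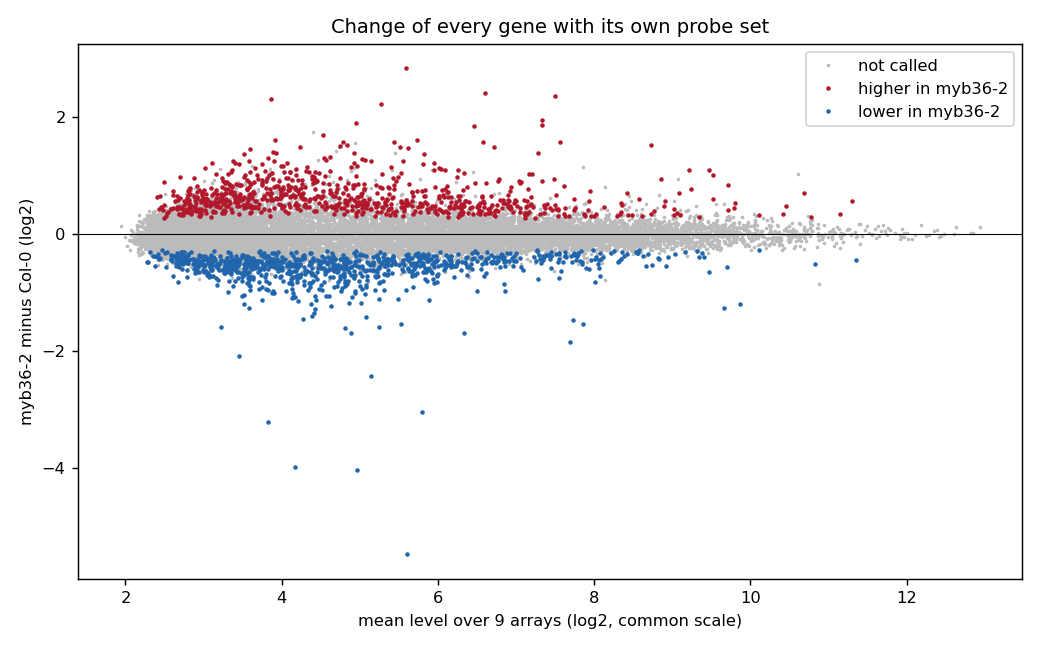
Log2 change between myb36-2 and Col-0 (vertical axis) against the mean level over all 9 arrays on the common log2 scale (horizontal axis), 1 point per gene, coloured where the adjusted p was under 0.05. Of 16542 genes, 796 lie above 0 in colour and 914 below, and the lowest point is AT3G55230 at -5.48.

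These directions were set on a common scale, made by quantile normalisation of the deposited log2 values over the 9 arrays. As deposited, the array medians of the tested probe sets averaged 5.32 ± 0.02 (SD, n = 3) in myb36-2, 5.08 ± 0.01 in myb36-1 and 5.10 ± 0.01 in Col-0. On the deposited scale the median log2 change over all genes was 0.17, and 3423 genes were higher in myb36-2 and 308 lower. With each array set to the same median, 869 genes were higher and 1258 lower. The files give no scan date, so the line and any processing step that set the myb36-2 arrays apart cannot be told apart. Every one of the 110 named genes called on the common scale kept its sign on the deposited and the median scale. Pearson correlations of levels across probe sets were 0.991 to 0.994 within a line and 0.980 to 0.986 between myb36-2 and Col-0 arrays.

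Of 26 listed genes of Casparian strip formation 11 were measured. Of these 11, 7 fell, 1 rose and 3 did not pass the test, against 5.53% of all genes lower and 4.81% higher. The median log2 change was -0.53, against -0.01 over all genes. The list was drawn up with earlier results of these arrays known, so its direction is not independent evidence. Leaving out each array in turn gave 5 to 7 falls and 0 or 1 rise.

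The largest of the 7 falls was in AT3G55230, the dirigent protein gene DIR24. Its level was 2.37, 3.17 and 2.47 on the log2 scale in myb36-2, against 8.12, 8.10 and 8.22 in Col-0. All 3 myb36-2 arrays lay far below every Col-0 array, and the change was -5.48 ± 0.19 (SE, n = 3 per line; adjusted p = 6.1e-07). AT2G39430, the dirigent protein gene DIR9, stood at 2.53, 2.47 and 2.61 in myb36-2, against 6.41, 6.63 and 6.51 in Col-0. The arrays of each line were close together, and the change was -3.98 ± 0.12 (adjusted p = 2.1e-07). The myb36-2 means of AT3G55230 and AT2G39430 had 9.47% and 5.99% of the tested probe sets of that line below them, so both values lay near the bottom of the array's range. The files used here give no detection call, so whether either transcript was above background in myb36-2 is not known, and no fold is given for them. AT4G13580, the dirigent protein gene DIR18, was at 4.02, 4.76 and 5.17 in myb36-2, against 6.34, 6.23 and 6.15 in Col-0. Its myb36-2 arrays were more spread than those of Col-0, and it changed by -1.59 ± 0.24 (adjusted p = 0.0063).

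AT1G61590, the receptor-like cytoplasmic kinase gene SGN1 of the barrier surveillance pathway, was at 7.04, 7.05 and 7.38 in myb36-2, against 8.73, 8.52 and 8.65 in Col-0. It fell by 1.47 log2 units with no overlap of the arrays. The peroxidase gene AT1G44970 (PER9) was at 3.91, 3.73 and 4.02 in myb36-2, against 4.9, 5.40 and 4.64 in Col-0, a change of -1.09 ± 0.18. AT5G66390, the peroxidase gene PRX72, changed by -0.53 ± 0.11 and AT5G50150 (LOTR1) by -0.36 ± 0.07, and the array values of both lines stayed apart. The call of AT5G66390 was lost when any of 4 arrays was left out, with an adjusted p of up to 0.063.

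The member that rose was the peroxidase gene AT4G11290 (PER39), at 6.64, 6.72 and 6.62 in myb36-2, against 6.23, 6.33 and 6.40 in Col-0, a change of 0.34 ± 0.08. The receptor kinase gene GSO1, whose product senses the ring-sealing peptides, was at 7.94, 7.88 and 8.16 in myb36-2 and at 8.21, 8.12 and 8.19 in Col-0, and its change of -0.18 ± 0.09 did not pass. The genes of its peptide ligands, AT2G16385 (CIF1) and AT4G34600 (CIF2), had changes of -0.36 ± 0.15 and 0.06 ± 0.08 that did not pass either. AT1G44970, AT5G66390, AT5G50150, AT4G11290 and AT2G16385 were named after their values were seen.

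Outside this list, further genes fell by more than 2 log2 units. AT1G71740 was at 3.51, 2.83 and 3.07 in myb36-2, against 6.94, 7.34 and 7.24 in Col-0, a change of -4.04 ± 0.20. AT2G40113 was at 3.01, 2.54 and 2.70 in myb36-2, against 5.68, 6.19 and 6.01 in Col-0, a change of -3.21 ± 0.16. Neither gene has a role given in the sources used here, and for each the myb36-2 arrays lay more than 2 log2 units below the lowest Col-0 array. AT1G30750 changed by -3.04 ± 0.16 and stood at 4.1, 4.84 and 4.52 in myb36-2, against 7.50, 7.55 and 7.54 in Col-0. AT5G52790, which encodes a membrane protein with a CBS domain and a DUF21 domain, was at 4.44, 4.2 and 4.27 in myb36-2, against 6.61, 6.79 and 6.79 in Col-0, a change of -2.43 ± 0.13. The remaining members of the 15 largest falls were AT1G43020, AT5G65530, AT5G43540, AT4G02090, AT1G78450, AT1G23650, AT3G48346 and AT5G42655, which changed by -2.09 to -1.54. AT5G65530, a receptor-like cytoplasmic kinase gene, was the member of these with the smallest standard error, at -1.85 ± 0.10. All 15 falls kept their call when any single array was left out. The myb36-2 means of AT1G23650, AT1G43020 and AT2G40113 had 4.13%, 9.77% and 11.9% of the tested probe sets below them. These means too lay near the bottom of the range, and whether the transcripts were above background in myb36-2 is not known.

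**Figure D2:**
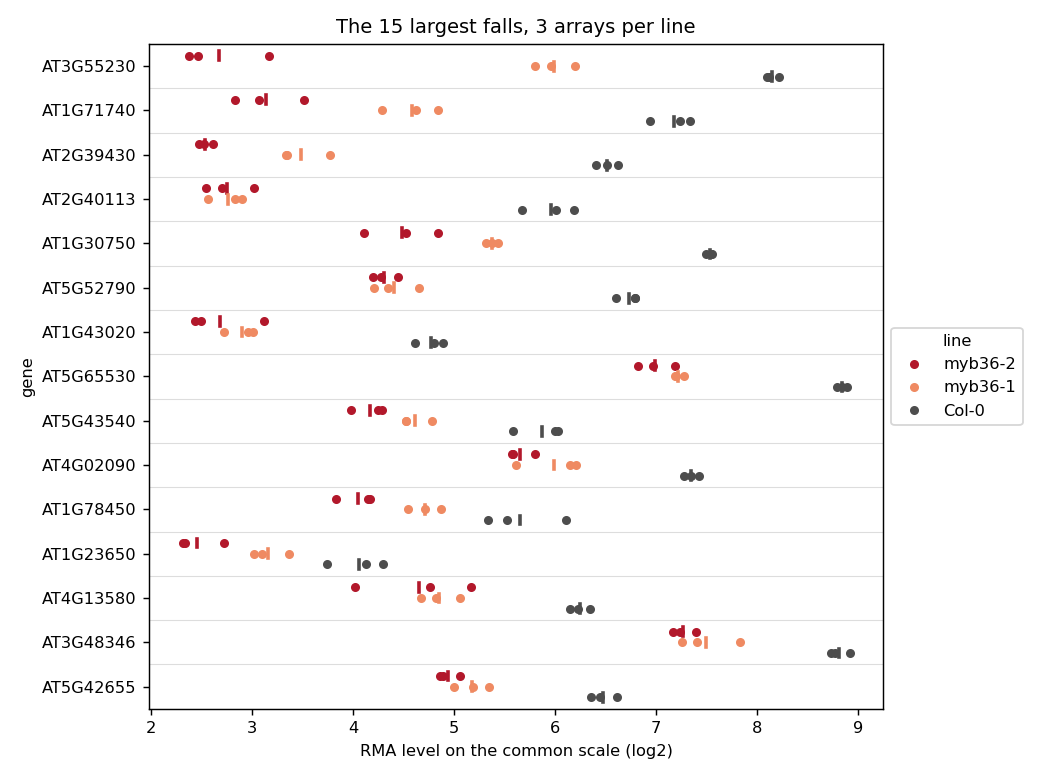
Log2 level on the common scale (horizontal axis) of the 15 genes with the largest falls in myb36-2, with 1 point per array, a bar at each line's mean, and the lines in rows within each gene. The myb36-2 points lie to the left of every Col-0 point in each gene, and AT3G55230 has the widest gap, from 2.37 to 3.17 in myb36-2 against 8.10 to 8.22 in Col-0.

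The dirigent protein family as a whole was split. Of 18 measured members, 5 fell, 1 rose and 12 did not pass (33.3% called, against 10.3% of all genes), with a median change of -0.06. The 5 falls include DIR24, DIR9 and DIR18, which were already counted in the Casparian strip list. Both lists were drawn up with earlier results of these arrays known, so this share is not independent evidence. AT1G65870 (DIR21) was the member that rose, at 4.57, 4.59 and 4.61 in myb36-2, against 3.06, 3.31 and 3.63 in Col-0, a change of 1.25 ± 0.16. The class III peroxidases, which oxidise phenolic monomers in the cell wall, were called in 16 of 64 measured members, 25.0% against 10.3% of all genes. The peroxidase list too was chosen with earlier results of these arrays known. They moved both ways: 8 rose and 8 fell, and the median was -0.01. With each array left out, 5 to 7 rose and 4 to 8 fell. PRX52 rose the most, at 7.45, 7.10 and 7.24 in myb36-2, against 5.07, 4.56 and 4.97 in Col-0. Its change of 2.40 ± 0.15 was a 5.28-fold higher level. AT1G49570 (PER10) was at 8.27, 8.42 and 8.46 in myb36-2, against 6.0, 5.64 and 6.45 in Col-0, a change of 2.35 ± 0.19. AT5G64120 (PRX71), at 8.01, 8.24 and 8.31 in myb36-2 against 6.31, 6.62 and 6.92 in Col-0, changed by 1.57 ± 0.16. AT2G38390 (PER23) had the largest fall of the family, at 5.47, 5.41 and 5.34 in myb36-2, against 6.34, 6.81 and 6.43 in Col-0, a change of -1.12 ± 0.12. Thus the peroxidases that rose included the 3 with the largest changes of the family.

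The lignin and phenylpropanoid list had 10 measured genes, and the 4 that were called were all peroxidases: PRX52, AT5G64120 and AT4G36430 (PER49) rose, and AT5G66390 fell. AT4G36430 changed by 0.70 ± 0.09. The pathway enzyme genes HCT and CCR2 changed by -0.02 ± 0.08 and 0.05 ± 0.10 and did not pass. As only 10 of 37 listed genes were measured, these values do not stand for the other enzymes of the pathway. The called genes CCOAMT, which rose, and CYP84A4, which changed by -1.07 ± 0.14, lie outside this list and are given below. DFR, the dihydroflavonol reductase of anthocyanin synthesis and the 1 measured gene of the flavonoid list, changed by 0.53 ± 0.12 and lost its call without any of 4 arrays (adjusted p up to 0.079).

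Beyond the peroxidases, the largest rise was AT5G52390, at 6.58, 6.79 and 6.92 in myb36-2, against 3.71, 4.37 and 3.72 in Col-0, a change of 2.83 ± 0.22 and a 7.11-fold higher level. AT1G59865 was at 5.0, 5.03 and 5.52 in myb36-2, against 2.87, 2.83 and 2.93 in Col-0, a change of 2.31 ± 0.14. Its Col-0 mean had 15.6% of the tested probe sets below it, and whether the transcript was above background in Col-0 is not known. STZ, a zinc-finger repressor of stress responses also known as ZAT10, was at 8.48, 8.08 and 8.54 in myb36-2, against 6.35, 6.55 and 6.59 in Col-0. Its change of 1.87 ± 0.15 was a 3.65-fold higher level. AT5G41740, which encodes an immune receptor of the TIR-NBS-LRR type, was at 6.19, 6.08 and 5.93 in myb36-2, against 3.67, 4.48 and 4.38 in Col-0, a change of 1.89 ± 0.20. AT4G00910, of the family of aluminium-activated malate transporters, was at 6.52, 6.02 and 6.28 in myb36-2, against 4.78, 4.56 and 4.67 in Col-0, a change of 1.60 ± 0.14. None of the other 9 measured members of that family passed.

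The other genes among the 15 largest rises were AT1G65500, AT1G51920, AT5G19240, AT3G55790, AT5G36657, AT1G30760 and AT4G38401, with changes of 2.22 down to 1.57. The calls of AT5G36657 and AT4G38401 were each lost without Col-0 replicate 1 or without Col-0 replicate 2, with adjusted p of up to 0.057 and 0.061. The other 13 rises kept their call when any single array was left out.

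**Figure D3:**
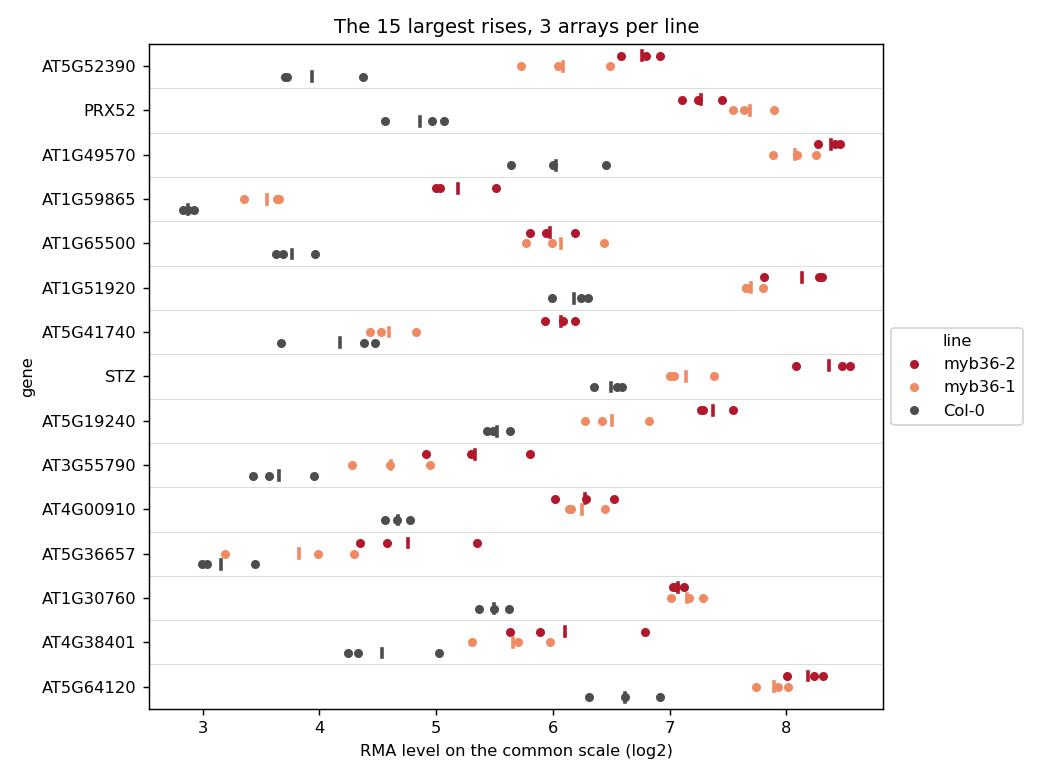
Log2 level on the common scale (horizontal axis) of the 15 genes with the largest rises in myb36-2, with 1 point per array and a bar at each line's mean. The myb36-2 points lie to the right of every Col-0 point in each gene, as for AT5G52390 with 6.58 to 6.92 in myb36-2 against 3.71 to 4.37 in Col-0.

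AT1G30760 belongs to the berberine bridge enzyme-like oxidases, which oxidise cell wall sugars and monolignols. It was at 7.05, 7.13 and 7.03 in myb36-2, against 5.37, 5.62 and 5.50 in Col-0, a change of 1.57 ± 0.10. Of 24 measured members of this family 4 rose and none fell (16.7% called, against 10.3% of all genes), with a median of 0.21, and the count of rises was 1 to 3 when an array was left out. The calls of AT5G44380 and AT5G44360 were lost in 4 and 5 of the 6 fits with an array left out. AT1G26390 changed by 1.1 ± 0.26, and its call was lost in each of the 6 fits with an array left out (adjusted p up to 0.094). Of 7 measured genes of the AZI and AIR1-like lipid transfer proteins, which include factors of systemic defence priming, 3 rose and 1 fell (57.1% called, against 10.3% of all genes), with a median of 0.55. The lists of this family and of the oxidases were chosen with earlier results of these arrays known, so their shares are not independent evidence. AT4G12490 was at 4.32, 3.53 and 3.93 in myb36-2, against 2.63, 2.52 and 2.90 in Col-0, a change of 1.24 ± 0.20. Its Col-0 levels lay near the bottom of the range, and whether the transcript was above background there is not known. AT4G22470 changed by 1.21 ± 0.25 and AT4G12545 by 0.86 ± 0.16, and AT4G22490 by -0.57 ± 0.13. The call of AT4G22470 was lost in 4 and that of AT4G22490 in 5 of the 6 fits with an array left out. Members of this family are near-identical in sequence, so probe sets may read more than 1 of them.

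Germin-like proteins, secreted proteins of the cell wall, moved both ways on the common scale, with 2 rises and 2 falls among 18 measured (22.2% called, against 10.3% of all genes). The falls depended on the scaling. As deposited the family had 4 rises and 0 falls, and with each array set to the same median 3 rises and 2 falls. AT5G38940 had the largest difference, 1.13 ± 0.31, which did not pass (adjusted p = 0.052). Of the called members AT5G38910 had the larger rise, at 10.28, 9.58 and 9.59 in myb36-2, against 8.69, 8.98 and 8.51 in Col-0, a change of 1.09 ± 0.23 that lost its call without Col-0 replicate 1 or 3 (adjusted p up to 0.058). Of 9 measured glutamate receptor-like channels, 3 rose and none fell (33.3% called, against 10.3% of all genes), and the median was -0.00119. The lists of the germin-like proteins and of these channels were chosen with earlier results of these arrays known, so their shares are not independent evidence. GLR2.2 was at 7.21, 7.23 and 7.38 in myb36-2, against 6.43, 6.56 and 6.44 in Col-0, a change of 0.80 ± 0.09. GLR2.7 and GLR1.4 changed by 0.71 ± 0.19 and 0.31 ± 0.07, and their calls were lost in 5 and 6 of the 6 fits with an array left out.

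**Figure D4:**
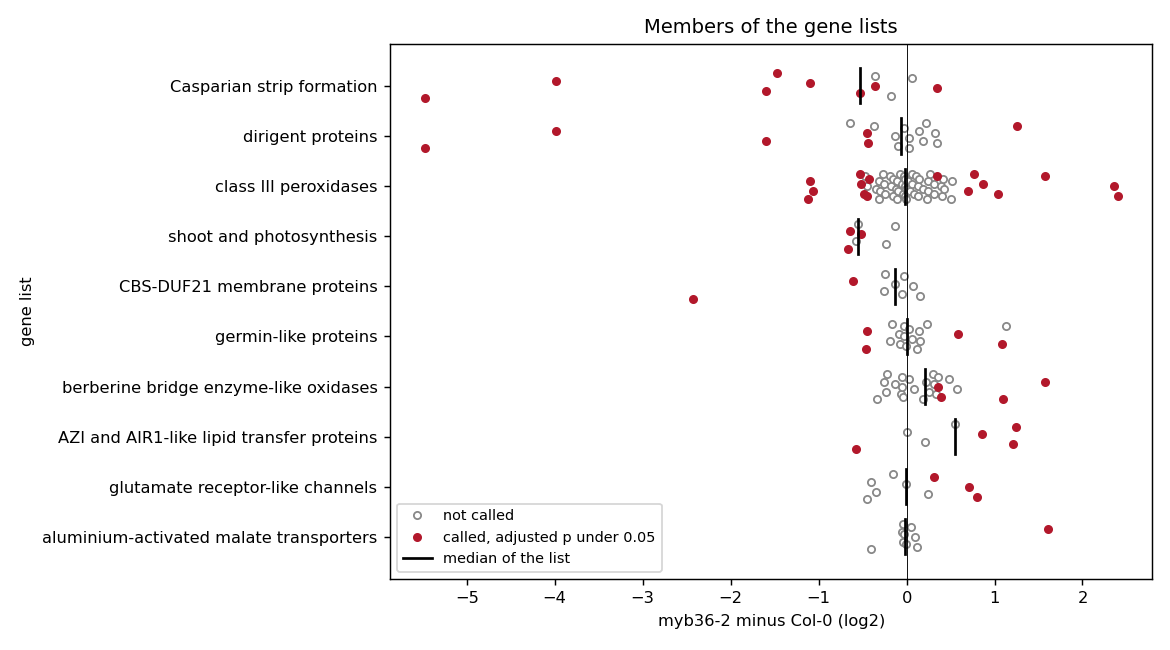
Log2 change between myb36-2 and Col-0 (horizontal axis) of every measured member of 10 gene lists (rows), 1 point per gene, filled where the adjusted p was under 0.05, with a black bar at the median of the list. The Casparian strip list has its median at -0.53, and the class III peroxidases have 8 filled points on each side of 0.

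Of 7 measured shoot and photosynthesis markers 3 fell, none rose and 4 did not pass (42.9% called, against 10.3% of all genes), with a median of -0.56, and 1 to 5 fell when an array was left out. RCA, the activase of Rubisco, was at 6.19, 6.26 and 6.26 in myb36-2, against 7.02, 6.80 and 6.87 in Col-0, a change of -0.66 ± 0.11. PSBY and LHCB4.2, of photosystem II and its antenna, changed by -0.64 ± 0.14 and -0.52 ± 0.14. In a wider list of 20 genes, drawn up after the values were seen, 6 fell, 1 rose and 13 did not pass (35% called, against 10.3% of all genes). LHCB4.1, TROL and TAAC, which did not pass, changed by -0.13, -0.07 and 0.09. PRK, the phosphoribulokinase of the Calvin cycle, changed by -1.08 ± 0.26 and PORB, an enzyme of chlorophyll synthesis, by -0.95 ± 0.23, and LHCB4.3 was the member that rose, by 0.74 ± 0.13. LHB1B2, also of the wider list, changed by -0.75 ± 0.14. The calls of PSBY, LHCB4.2, PRK and PORB were each lost in 4 or 5 of the 6 fits with an array left out. Their adjusted p in those fits reached 0.083, 0.13, 0.088 and 0.091. The falls of RCA and LHB1B2 and the rise of LHCB4.3 kept their calls in all 6. On the deposited scale the 7 markers had 1 fall and the wider list 3 falls and 1 rise. The summed linear level of the 7 markers was 364 to 441 in myb36-2, against 479 to 594 in Col-0. The part of green tissue among the sampled roots in this difference was not tested.

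Few markers of other root cell types were measured. Of 4 measured endodermis markers, AT1G61590 fell, as given above, and JKD, GSO1 and AT1G14580 did not pass (25% called, against 10.3% of all genes). Their summed linear level was 771 to 847 in myb36-2, against 1056 to 1170 in Col-0. AT1G61590 alone was at 132 to 167 in myb36-2, against 367 to 425 in Col-0. The sum of the other 3 was 639 to 715 in myb36-2, against 690 to 745 in Col-0, and these ranges overlapped. Of 4 cortex markers AT1G62510 rose by 0.58 ± 0.15 (25% called), and its call was lost whichever array was left out (adjusted p up to 0.11). No marker of root hairs (2 measured), root cap (1), xylem (1), phloem (2) or pericycle (2) passed in limma, and 0 of them had an unadjusted p under 0.05. Those counts are small, so most marker genes of these cell types are not analysed here.

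Stress and nutrient lists also had few measured genes each. Counts this small cannot be set apart from the 10.3% of all genes called. In the list of touch, wound and rapid stress genes STZ rose, and EXO and WRKY6 did not pass. In the hypoxia list PDC3, a pyruvate decarboxylase of fermentation, was at 5.47, 5.39 and 5.42 in myb36-2, against 3.95, 4.32 and 4.14 in Col-0, a change of 1.29 ± 0.10. PDC2 and AT3G10040, from the same list, changed by -0.45 ± 0.27 and -0.27 ± 0.10 and did not pass. In limma none of 5 abscisic acid response genes, 5 iron deficiency genes, 3 cell cycle genes and 2 suberin genes passed, while 1, 1, 2 and 1 of them had an unadjusted p under 0.05. None of 5 jasmonate and defence markers and 1 heat shock gene passed, and 0 of them had an unadjusted p under 0.05.

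Further families recognised by their symbols were called at rates on either side of the 10.3% of all genes. Expansins, which loosen cell walls, had 2 rises and 3 falls among 22, and xyloglucan endotransglucosylase/hydrolases 1 rise and 2 falls among 9. UDP-glycosyltransferases had 2 rises and 3 falls among 51, cytochromes P450 had 1 rise and 2 falls among 28, and glutathione S-transferases 1 rise and 2 falls among 14. CYP84A4 fell by 1.07 log2 units and GSTU23 by 0.94. Among 63 low-molecular-weight cysteine-rich proteins 3 fell and none rose, and among 23 TRICHOME BIREFRINGENCE-like proteins, which modify wall polysaccharides, 3 fell and none rose. AGAMOUS-like MADS-box factors had 2 rises and 3 falls among 64, and none of 14 SWEET sugar transporters or 12 tetraspanins passed in limma, with 3 in each family at an unadjusted p under 0.05. Of 10 plant U-box ubiquitin ligases 2 rose and 1 fell, and PUB54 was at 4.02, 3.86 and 4.23 in myb36-2, against 2.80, 3.06 and 3.04 in Col-0, a change of 1.07 ± 0.17. Of 14 prenylated RAB acceptors, small membrane proteins of vesicle traffic, 2 rose and 1 fell. PRA1.B3 was at 4.54, 4.57 and 4.51 in myb36-2, against 5.46, 5.50 and 5.57 in Col-0, a change of -0.96 ± 0.10. Single members were called among 7 WRKY factors (WRKY22, 0.63 ± 0.13), 18 RALF-like peptides (RALFL27, -0.76 ± 0.18), 22 beta-glucosidases (BGLU41, -0.44 ± 0.12) and 19 members of glycosyl hydrolase family 9 (GH9B10, -1.02 ± 0.19). Each of these 4 calls was lost in at least 1 of the 6 fits with an array left out, with adjusted p of up to 0.058 for WRKY22, 0.093 for RALFL27, 0.12 for BGLU41 and 0.054 for GH9B10. Of the calls in the other families, those of PUB15 and CYP71B28 were lost in all 6 fits. XTH32, GSTU27, UGT78D2, AGL54, AGL21, EXPA8, PRA1.B5, LCR46 and TBL28 each kept theirs in only 1 of the 6. CYP84A4, GSTU23, PUB54 and PRA1.B3 kept theirs in all 6.

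The difference between the mutant lines was tested directly. Between myb36-2 and myb36-1, 360 genes were higher in myb36-2 (2.18%) and 378 were lower (2.29%), or 4.46% in all. Over all tested probe sets 4.15% were called, 1.97% higher and 2.19% lower. This contrast shares the myb36-2 arrays with the comparison above, so no agreement between them is given. DIR24 (AT3G55230) was at 2.37, 3.17 and 2.47 in myb36-2, against 5.96, 5.80 and 6.20 in myb36-1, a difference of -3.32 ± 0.19 (adjusted p = 6.9e-05), and Col-0 was at 8.10 to 8.22. QQS, an orphan gene that influences starch content, was at 4.09, 4.08 and 4.08 in myb36-2, against 7.67, 7.97 and 7.60 in myb36-1, a difference of -3.66 ± 0.44. In Col-0 it was at 3.61, 5.87 and 4.80, a spread wider than in either mutant, and its change in myb36-2 of -0.68 ± 0.44 did not pass. AT1G71740 differed by -1.45 ± 0.20, NVL by -1.26 ± 0.11, and LCR39 and AT5G48060 by -1.22 each.

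The highest difference was in AT1G59865, at 5.0, 5.03 and 5.52 in myb36-2, against 3.66, 3.64 and 3.35 in myb36-1, or 1.64 ± 0.14 (adjusted p = 0.0013). AT1G14480 differed by 1.48 ± 0.17, AT5G41740 by 1.47 ± 0.20, AT1G19650 by 1.38 ± 0.20, PDC3 by 1.37 ± 0.10 and EXLA3, an expansin-like gene, by 1.25 ± 0.11. PDC3 was at 5.47, 5.39 and 5.42 in myb36-2, against 4.03, 3.98 and 4.15 in myb36-1. The myb36-1 values of PDC3 overlapped those of Col-0, at 3.95, 4.32 and 4.14. For the peroxidase gene PRX52 the difference of -0.42 did not pass (adjusted p = 0.16).

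**Figure D5:**
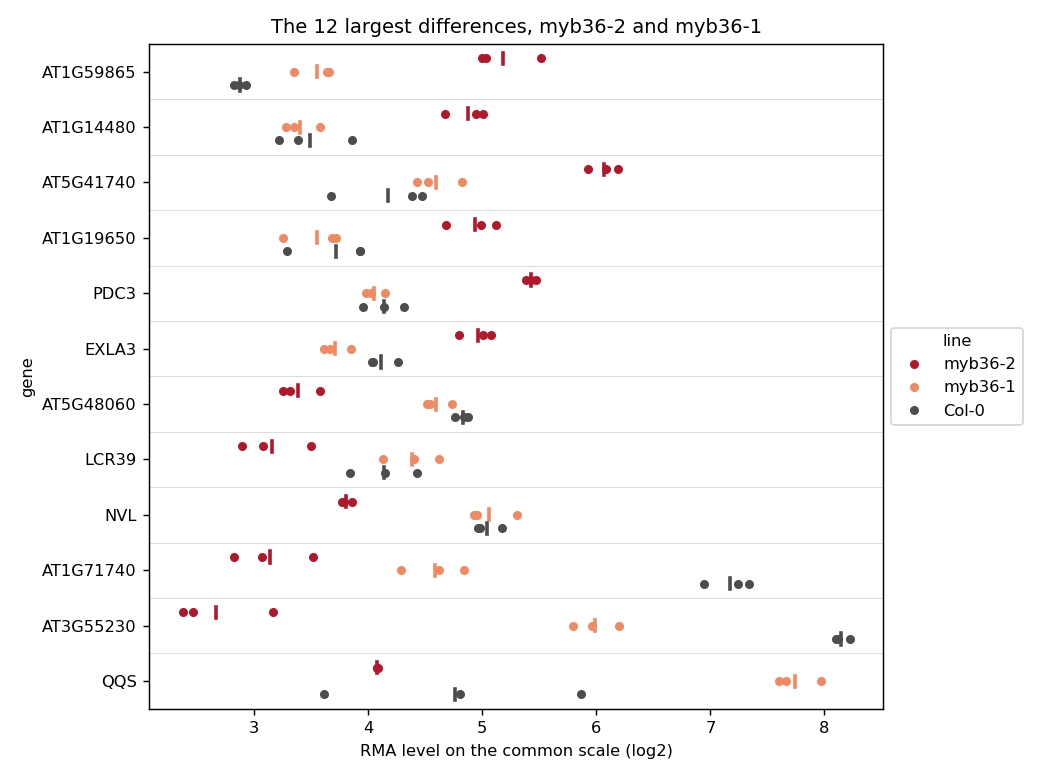
Log2 level on the common scale (horizontal axis) of the 12 genes with the largest called differences between myb36-2 and myb36-1, 6 in each direction, with 1 point per array and a bar at each line's mean. PDC3 lies at 5.39 to 5.47 in myb36-2 and at 3.98 to 4.15 in myb36-1, and QQS at 4.08 to 4.09 in myb36-2 and 7.60 to 7.97 in myb36-1.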

How the data were processed

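Root RNA was measured on 9 Affymetrix arrays, 3 per line. The deposited values are log2 levels made by the authors with RMA, per the submitters' processing notes; its version, a genome build and joint normalisation: not given in the sources used here. Of 38408 probe sets, 7083 without genes at the start of the identifier order were left out as control-like, and 31325 were quantile normalised over 9 arrays (the common scale). limma 3.58.1 (R 4.3.3) fitted 1 mean per line with empirical Bayes moderation; calls had a two-sided Benjamini-Hochberg adjusted p under 0.05 over all tested probe sets. A gene was read from its brightest probe set paired with 1 gene. Of 16542 genes, 16535 matched the reference table (assembly TAIR10.1), which served for names and neighbours only. The number of arrays limits precision.

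Named were the 15 largest rises and falls whose arrays did not overlap, up to 4 called and 2 uncalled members per list, and 6 differences in each direction between mutants; a few others, such as AT1G14580, were named after their values were seen. Members and lists were chosen with earlier results of these data known, and family lists were added after the files were seen, in place of planned name patterns that matched unrelated genes. CHI, PEP and COL1 were dropped from lists because the reference gives these symbols to other genes. On simulated data for myb36-2 against Col-0 with 31325 probe sets, 78 of 100 changes of 1 log2 unit and 99 of 100 of 2 units were recovered, with 10 false calls. The simulation drew independent normal noise, changed far fewer probe sets than were called here, and held no shift between arrays. Its rates need not hold for the real arrays, where most called changes were smaller. Alternatives covered scaling, filters, moderation, arrays in the fit, a replicate block and each array left out.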

Additional observations from a re-analysis of the deposited data

Results flagged for a closer look

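In these genes the changes of the mutant lines from Col-0 differed by a test of the difference itself, the limma contrast of myb36-2 minus myb36-1 (3 arrays each, adjusted p under 0.05). Higher in myb36-2 than in myb36-1 on the log2 scale were AT1G59865 by 1.64, AT1G14480 by 1.48, AT5G41740 by 1.47, AT1G19650 by 1.38, PDC3 by 1.37, EXLA3 by 1.25, STZ by 1.23 and AT5G19240 by 0.86. Lower in myb36-2, with differences below 0, were QQS at -3.66, AT3G55230 at -3.32, AT1G71740 at -1.45, NVL at -1.26, LCR39 at -1.22, AT5G48060 at -1.22, AT2G39430 at -0.95 and AT1G30750 at -0.89. Every array of myb36-2 lay on the same side of every myb36-1 array in these 16 genes. The genes were picked by this same contrast, so that separation adds no support. With 3 arrays per line, no array was tested as an outlier within its line.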

How the results depend on the processing

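For myb36-2 against Col-0, 3149 of 31325 probe sets were called (1461 higher, 1688 lower). The deposited scale gave 6669 calls, 90.5% of them higher against 46.4% on the common scale; median scaling gave 4082, with 1558 higher and 2524 lower. Leaving out the dim lower part of the probe sets gave 1789 calls of 15662, and 1 probe set per gene 1988 of 16542, both by construction with fewer probe sets tested. Leaving out 1 array gave 1481 (without Col-0 replicate 2) to 2362 calls. Including all deposited probe sets, a moderation trend and only the 6 arrays compared gave 2122, 3278 and 2128.

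For myb36-2 against myb36-1, 1301 were called. The deposited scale gave 4836, 94.0% higher; median scaling 1724, with 639 higher and 1085 lower; the dim part left out 525; all deposited probe sets 732; the 6 arrays compared 659; the replicate block 803; and each array left out 528 (without myb36-1 replicate 2) to 859. The cause was not tested.

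Same-numbered myb36-2 and Col-0 arrays had deviations correlated at -0.08 to 0.07 and differently numbered ones at -0.15 to 0.15. With so few arrays per line, these values cannot decide whether the numbers pair the arrays. The replicate block gave 2567 calls for myb36-2 against Col-0. Of 110 called named genes, none reversed; 28 lost the call on the deposited scale, 24 with 6 arrays, 17 with the block, 7 with the trend and 51 in at least 1 fit without an array. Of the 30 largest changes, AT5G36657 and AT4G38401 lost it, each without Col-0 replicate 1 or 2.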

Other observations

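Probe sets not paired with 1 gene numbered 14603, of which 652 were higher and 760 lower in myb36-2 than in Col-0, or 9.67% called. Their genes are not named here.

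Called genes sometimes stood next to each other in the order of protein-coding genes of the reference. Runs of neighbours called in the same direction numbered 36 for rises and 31 for falls, most of them pairs. The longest was a run of 4 rises, AT1G53610, AT1G53620, AT1G53625 and AT1G53633, with changes of 1.12, 0.75, 0.95 and 0.48. AT1G51913, AT1G51915 and AT1G51920 rose by 1.21, 1.20 and 1.95. AT4G04745, AT4G04750 and AT4G04760 fell by 0.65, 0.80 and 0.79. These runs were noticed in the data, and how often neighbours would be called together without a relation was not tested. AT4G38401 rose while its neighbour AT4G38400 (EXLA2) changed by -0.65, and AT5G64120 rose while AT5G64110 changed by -0.52. The share of genes called varied from 9.16% on chromosome 3 to 11.1% on chromosome 1. By gene length, 4.06% of genes of 3093 bases or more rose and 5.15% fell, against 5.72% and 4.87% of genes of up to 1022 bases.

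Among called genes with a symbol, chosen here after their values were seen, BBM, a transcription factor gene known from embryo development, rose by 1.07 log2 units, CCOAMT, a methyltransferase gene, by 1.15 and CHI, a chitinase gene in the reference, by 1.25. ALDH11A3 changed by -1.40 and GH3.3, an auxin-conjugating enzyme gene, by -0.95.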
